A study of Mus musculus with 8 samples.

Results

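The cullins and their RING partners are 10 genes of the 41709 in the deposited table, chosen by name: the scaffolds *Cul1*, *Cul2*, *Cul3*, *Cul4a*, *Cul4b*, *Cul5*, *Cul7* and *Cul9*, and the RING-finger proteins *Rbx1* and *Rnf7*. Their mRNA was measured by RNA-seq in 8 tibialis anterior (TA) muscles of C57BL/6J mice, 4 of which had received *Uba1* siRNAs and 4 non-targeting (NT) control siRNAs. All mice were males of 3 months. Each treatment was a SMARTpool (a mix of several siRNAs, either against *Uba1* or non-targeting) given at 1500 pmol in 30 μl and electroporated into the muscle 7 days before collection, so both groups share the injection and the electroporation. Equal replicate numbers mark the contralateral muscles of 1 mouse. The NT muscles all carry the letter R and the *Uba1* siRNA muscles the letter L, so that leg and siRNA cannot be told apart. The titles name UBA1 for all 4 knockdown muscles, whereas the treatment tags name UBA2, UBA3 and UBA4 for replicates 2, 3 and 4.

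A cullin is the elongated scaffold of a cullin-RING ubiquitin ligase: one end holds a substrate receptor, usually through an adaptor, and the other holds a small RING protein that recruits an E2 enzyme loaded with ubiquitin. Attachment of the ubiquitin-like protein NEDD8 to the cullin activates the ligase, the COP9 signalosome takes NEDD8 off, and the Cand proteins exchange receptors on the bare scaffold. Ubiquitin reaches these E2 enzymes from the E1 enzyme Uba1, the target of the siRNAs, while NEDD8 has an E1 of its own, formed by Nae1 and Uba3.

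The question of the comparison was which mRNAs differ after the main ubiquitin E1 is reduced. *Uba1* mRNA itself was at 60.6, 59.0, 63.6 and 59.1 TPM (length-corrected transcript abundance) in NT replicates 1 to 4 and at 18.1, 6.77, 15.8 and 23.1 TPM in *Uba1* siRNA replicates 1 to 4, lower in 4 of 4 pairs of legs with no overlap. Its log2 fold change (log2FC, *Uba1* against NT siRNAs, from log2(TPM + 1)) was -1.98 (standard error 0.290, adjusted p = 0.0527 in limma). That p was 0.0333 after median-ratio scaling and 0.0278 with the legs of a mouse as a replicate block, but 0.131 with no filter on low values and 0.180 in a Kruskal-Wallis test. With 1 muscle left out it was 0.00257 and 0.0206 without *Uba1* siRNA replicate 2 or 4 and between 0.0838 and 0.230 without any other. The TPM of each muscle sum to 1000000 and keep no read depth. Mitochondrial transcripts took 42.1 to 45.7% of them in NT muscles and 40.2, 50.3, 39.9 and 46.5% in *Uba1* siRNA replicates 1 to 4. As deposited, 81.8% of the 11530 genes tested were higher on average with *Uba1* siRNAs, and the median log2FC of all of them was 0.11. Dividing each muscle by its median ratio to the others (factors of 1.12 for *Uba1* siRNA replicates 1 and 3 and between 0.946 and 0.990 for the other 6) brought that median to 0.0016, with 50.7% of genes higher. Scaled values are given beside those as deposited for the members and for most partner genes named. Myofiber markers such as *Acta1*, *Ckm* and *Ttn* were abundant in all 8 muscles (summed TPM of the 7 markers between 77268 and 113570). As deposited 5 of the 7 had a negative log2FC (median -0.066), after median-ratio scaling 6 of 7 did (median -0.19, 3 of them at an unadjusted p under 0.05), and after quantile normalization 3 of 7 did (median 0.018), so their direction depended on the scaling. With 1 muscle left out the median of these markers as deposited ran from -0.11 to -0.0059, without *Uba1* siRNA replicate 3 and 2. The muscles are bulk tissue, in which fewer cells of a type and less RNA per cell cannot be told apart.

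All 10 genes passed the filter on low values, and they spanned a wide range of levels. TPM are divided by transcript length, so levels can be compared between genes. Averaged over the 8 muscles, *Rnf7* was at 112 TPM and *Cul3* at 100.4 TPM. *Cul1* followed at 42.7 TPM, *Cul4a* at 33.5 TPM, *Rbx1* at 26.6 TPM, *Cul2* at 26.5 TPM and *Cul5* at 17.3 TPM. *Cul4b*, *Cul9* and *Cul7* lay lowest, at 4.80, 4.66 and 3.23 TPM. *Rnf7* exceeded *Cul3* in only 5 of 8 muscles, *Rbx1* exceeded *Cul2* in 5 and *Cul4b* exceeded *Cul9* in 4, so the order within these 3 pairs of neighbours is not set beyond the spread. Every other neighbouring pair kept its order in 8 of 8 muscles. *Cul3*, the scaffold that binds BTB-domain receptors directly, supplied 43.1% ± 1.62 of the summed TPM of the 8 cullins in controls and 43.0% ± 1.85 in knockdown muscles (SD, n = 4 muscles each). *Cul1*, which builds the SCF ligases, supplied 18.0% and 18.6%, *Cul4a* 14.8% and 14.0%, and *Cul2* 11.4% in both groups. The remaining shares were 7.47% and 7.34% for *Cul5*, 2.01% and 2.09% for *Cul4b*, 1.87% and 2.13% for *Cul9*, and 1.35% and 1.43% for *Cul7*.

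**Figure D1:**
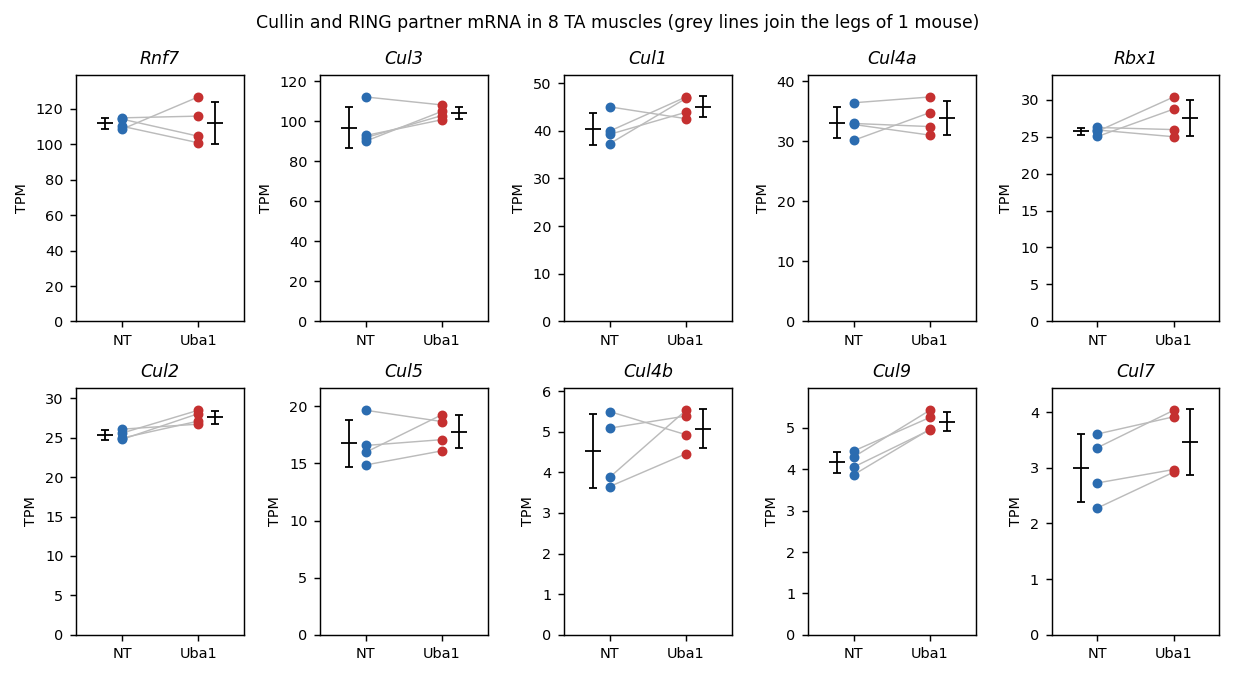
TPM of each of the 10 genes in the 8 muscles, with NT siRNAs in blue and Uba1 siRNAs in red. Grey lines join the 2 legs of a mouse, black marks give the mean and SD of 4 muscles, and each axis starts at 0. The groups stand apart for Cul2 and Cul9 and overlap for the other 8 genes.

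None of the 10 genes passed an adjusted p of 0.05 in limma, where 0.0260% of all genes tested did. At an unadjusted p under 0.05, 1 of 10 was higher with *Uba1* siRNAs, *Cul9*, against 16.0% of all genes, and 0 of 10 were lower, against 1.98%. With no filter on low values 3 of 10 were higher, beside 2348 of 21532 genes. Without mitochondrial genes 2 of 10 were, beside 2534 of 11512. By an unadjusted Kruskal-Wallis test 2 of 10 were, beside 2013 of 11530. Single muscles also moved the limma counts. Without NT replicate 4, 3 of 10 were higher, beside 1829 of the 11530 genes tested. Without *Uba1* siRNA replicate 4, 2 of 10 were, beside 2044 of 11530. Over all genes, 1158 in place of 1844 were higher without NT replicate 2, 1212 without *Uba1* siRNA replicate 3, and 4 higher and 35 lower genes passed the adjusted p without *Uba1* siRNA replicate 4. With the replicate block *Cul9* was again the 1 of 10 that was higher at an unadjusted p under 0.05 (22.4% of all genes), and 0 were lower (2.80%). A Kruskal-Wallis test on the log values called 0 of the 11530 genes after adjustment (smallest adjusted p 0.180), so its 0 of 10 says nothing of these genes. With the replicate block the adjusted count was again 0 of 10 (0.494% of all genes), as it was after median-ratio scaling (0.199%) and with both together (0.659%). All 4 *Uba1* siRNA muscles lay above all 4 NT muscles for *Cul2* and *Cul9*, 2 of 10, beside 10.6% of all genes. No member lay below in all 4, beside 1.01%. The median log2FC was 0.11 over the 10 genes and 0.11 over all genes tested, and it was 0.13 over the 8 cullins. As deposited, 9 of 10 genes were higher on average, and after median-ratio scaling 5 of 10 were.

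*Cul9*, a large cullin that also carries a RING-between-RING domain and binds p53, had the largest log2FC of the 10. It was at 4.05, 4.44, 3.87 and 4.30 TPM in NT replicates 1 to 4 and at 4.95, 5.25, 4.97 and 5.43 TPM with *Uba1* siRNAs. The lowest knockdown muscle lay above the highest control, and the *Uba1* siRNA leg was higher in 4 of 4 mice. The log2FC was 0.25 (standard error 0.068, 95% interval 0.099 to 0.40), a 1.19-fold difference of TPM + 1, with an adjusted p = 0.162 in limma and 0.0999 with the replicate block. The exact permutation test over muscles gave p = 0.0286 (two-sided), the smallest that 4 against 4 allow. After median-ratio scaling the log2FC of *Cul9* was 0.15 (standard error 0.086) and its groups overlapped, from 3.91 to 4.69 and from 4.42 to 5.51 scaled TPM. Under that scaling 0 of 10 genes had all 4 *Uba1* siRNA muscles above the NT muscles (2.71% of all genes) and 0 of 10 had all 4 below (4.14%).

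*Cul7*, the closest relative of *Cul9*, assembles with the F-box protein Fbxw8. Its 4 NT muscles were at 3.36, 2.73, 3.61 and 2.28 TPM and its *Uba1* siRNA muscles at 4.03, 2.97, 3.92 and 2.92 TPM. The *Uba1* siRNA leg was higher in 4 of 4 mice although the groups overlapped, and replicates 1 and 3 were high and replicates 2 and 4 low on both sides. The log2FC was 0.16 (standard error 0.133, 95% interval -0.14 to 0.46, adjusted p = 0.509 in limma) and 0.068 after median-ratio scaling. The ratio of *Cul9* to *Cul7* ranged from 1.07 to 1.89 in NT muscles and from 1.23 to 1.86 in *Uba1* siRNA muscles.

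*Cul1*, the SCF scaffold, was at 37.3, 39.3, 39.9 and 45.0 TPM with NT siRNAs and at 46.8, 43.9, 47.1 and 42.5 TPM with *Uba1* siRNAs. NT replicate 4 lay among the knockdown muscles, and its mouse was the 1 of 4 in which the *Uba1* siRNA leg was lower. The log2FC was 0.16 (standard error 0.073, 95% interval -0.0064 to 0.32, adjusted p = 0.294 in limma), and 0.038 after median-ratio scaling. *Cul2*, the scaffold that pairs with the elongins and the von Hippel-Lindau receptor, was at 24.8, 25.0, 25.6 and 26.1 TPM with NT siRNAs and at 28.1, 27.1, 28.5 and 26.7 TPM with *Uba1* siRNAs. Every knockdown muscle was above every control. The distance was small, with a log2FC of 0.12 (standard error 0.055, 95% interval -0.0054 to 0.24, adjusted p = 0.294 in limma). After median-ratio scaling *Cul2* was at 26.4 ± 0.773 and 26.4 ± 1.35 (SD, n = 4 muscles each).

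*Cul3* was at 91.8, 90.05, 92.8 and 112 TPM in NT muscles and at 103, 105, 101 and 108 TPM in *Uba1* siRNA muscles. NT replicate 4 was the highest of all 8 muscles, while the other 3 controls lay below every knockdown muscle. The log2FC of *Cul3* was 0.11 (standard error 0.078, 95% interval -0.065 to 0.29, adjusted p = 0.444 in limma), 0.18 without NT replicate 4 and -0.0095 after median-ratio scaling. *Cul5*, which takes receptors with a SOCS box, was at 16.0, 14.9, 16.6 and 19.7 TPM with NT siRNAs and at 19.3, 16.1, 17.1 and 18.7 TPM with *Uba1* siRNAs. NT replicate 4 was again the highest of the 8, and the log2FC was 0.084 (standard error 0.094, 95% interval -0.13 to 0.30, adjusted p = 0.633 in limma). It was 0.16 without NT replicate 4, 0.032 without NT replicate 2 and -0.032 after median-ratio scaling.

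*Cul4a* and its X-linked paralog *Cul4b* both bind receptors through Ddb1. *Cul4a* was at 30.2, 32.8, 36.4 and 33.0 TPM with NT siRNAs and at 34.8, 31.1, 37.4 and 32.5 TPM with *Uba1* siRNAs. The *Uba1* siRNA leg was higher in 2 of 4 mice, and the groups overlapped almost fully (log2FC 0.034, standard error 0.081, 95% interval -0.15 to 0.22, adjusted p = 0.825 in limma). After median-ratio scaling the log2FC of *Cul4a* was -0.084 (standard error 0.060). *Cul4b* was at 3.88, 3.65, 5.09 and 5.50 TPM with NT siRNAs and at 5.53, 4.46, 5.39 and 4.93 TPM with *Uba1* siRNAs. NT replicates 1 and 2 lay below every knockdown muscle, whereas NT replicates 3 and 4 lay among them (log2FC 0.15, standard error 0.121, 95% interval -0.13 to 0.42, adjusted p = 0.509 in limma). The log2FC of *Cul4b* was 0.046 after median-ratio scaling, 0.068 without NT replicate 2 and 0.23 without NT replicate 4.

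The 2 RING partners serve different scaffolds: Rbx1 joins most cullins, whereas Rnf7 is best known as the partner of Cul5. *Rbx1* was at 25.7, 25.9, 25.0 and 26.2 TPM with NT siRNAs and at 30.3, 25.0, 28.7 and 25.9 TPM with *Uba1* siRNAs. *Rnf7* was at 108, 114, 115 and 110.2 TPM with NT siRNAs and at 127, 105, 116 and 101 TPM with *Uba1* siRNAs. For both genes the NT muscles were close together while *Uba1* siRNA replicates 1 and 3 were high and replicates 2 and 4 low. These are the muscles with the lowest (1 and 3) and the highest (2 and 4) mitochondrial shares, and the part of that share in the spread was not tested. The log2FC was 0.090 for *Rbx1* (standard error 0.072, 95% interval -0.073 to 0.25, adjusted p = 0.500 in limma) and -0.028 after median-ratio scaling. For *Rnf7* it was -0.0046 (standard error 0.079, 95% interval -0.18 to 0.17, adjusted p = 0.978 in limma). After median-ratio scaling *Rnf7* averaged 116 ± 3.11 in controls and 107 ± 4.89 in knockdown muscles (SD, n = 4 muscles each), a log2FC of -0.13 (standard error 0.053, unadjusted p = 0.0417, adjusted p = 0.445 in limma). On that scale *Rnf7* was the 1 of 10 genes that was lower at an unadjusted p under 0.05 (6.18% of all genes), and 0 of 10 were higher (4.43%). With the replicate block on the same scale these counts changed places: *Cul9* was higher (unadjusted p = 0.0398 in limma), 1 of 10 beside 6.96% of all genes, and 0 of 10 were lower beside 8.76%, with *Rnf7* at an unadjusted p = 0.0516.

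**Figure D2:**
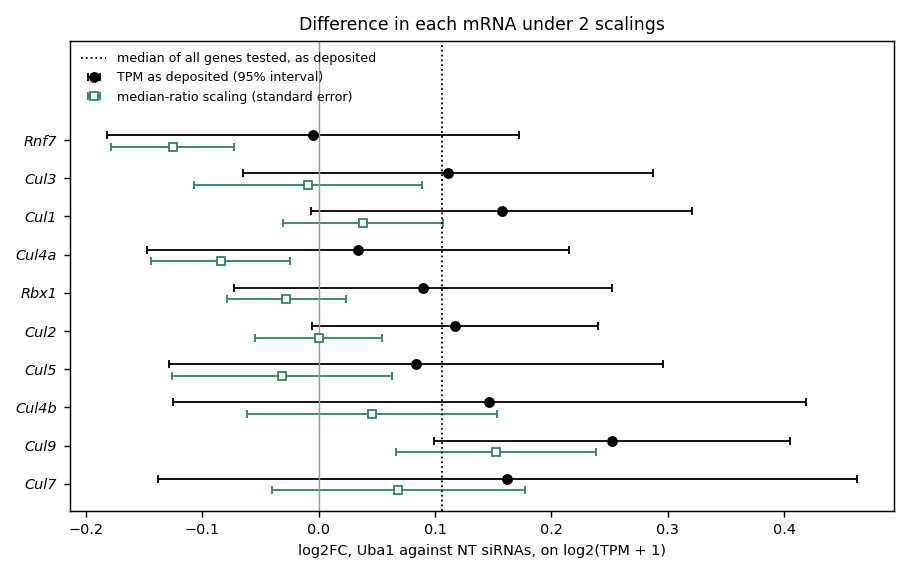
Log2FC of each gene on log2(TPM + 1), Uba1 against NT siRNAs. Black points with 95% intervals are TPM as deposited, green squares with standard errors are median-ratio scaled values, and the dotted line marks 0.11, the median of all genes tested as deposited. The interval of Cul9 is the only one of the 10 as deposited that does not reach 0, and Rnf7 lies lowest on both scales.

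Ratios of 2 transcripts within a muscle do not depend on how that muscle is scaled, and 5 were compared with two-sided exact permutation tests. The ratio of *Rnf7* to *Rbx1* was 4.36 ± 0.185 with NT siRNAs, from 4.20 to 4.59, and 4.07 ± 0.140 with *Uba1* siRNAs, from 3.89 to 4.19 (± is the SD of 4 muscles). All 4 knockdown muscles were below all 4 controls and the ratio was lower in 4 of 4 mice. The difference was -0.098 on the log2 scale, with an exact p = 0.0286 that became 0.143 after adjustment over the 5 ratios. The gap between the groups was narrow, from 4.19 to 4.20. *Cul5* to its partner *Rnf7* was 0.150 ± 0.0203 and 0.160 ± 0.0172, higher in 4 of 4 mice but with overlapping groups (log2 difference 0.093, exact p = 0.371, adjusted 0.464, and from 0.020 to 0.18 with 1 muscle left out). *Cul4a* to *Cul4b* was 7.48 ± 1.25 and 6.70 ± 0.320, a log2 difference of -0.15 (exact p = 0.314, adjusted 0.464) that was -0.052 without NT replicate 2 and -0.25 without NT replicate 4. *Cul9* to *Cul7* was 1.45 ± 0.376 and 1.53 ± 0.329 (log2 difference 0.091, exact p = 0.629, adjusted 0.629). The summed TPM of the 8 cullins were 224 ± 16.9 and 242 ± 4.71, and those of both RING partners 138 ± 2.86 and 139 ± 14.1. Their ratio differed by 0.10 on the log2 scale (exact p = 0.286, adjusted 0.464). None of the 5 ratios passed the adjustment. With the legs of a mouse as pairs, 4 mice cannot give a sign-flip p under 0.125.

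**Figure D3:**
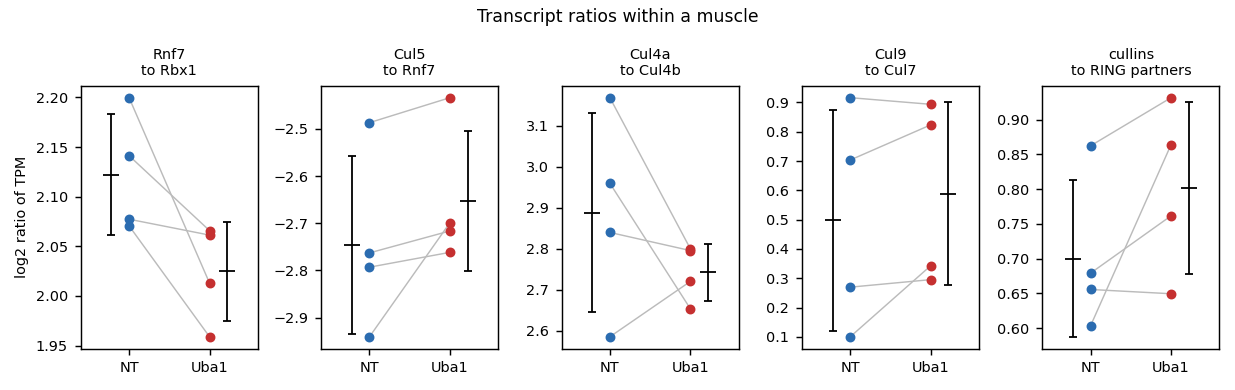
Log2 ratio of TPM within each muscle for the 5 pairs compared, with NT siRNAs in blue, Uba1 siRNAs in red, grey lines joining the legs of 1 mouse and black marks for the mean and SD of 4 muscles. The axes do not start at 0. Rnf7 to Rbx1 is the 1 ratio whose groups stand apart, and it is lower in 4 of 4 mice.

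The promoters of 4 genes are shown because the values above turn on them: *Cul9*, the member with the largest difference, its relative *Cul7*, which lies 103929 bp away on chromosome 17, and the RING pair *Rnf7* and *Rbx1*. Each sequence runs from 250 bases before to 50 after the transcription start, 5′ to 3′ on the gene's strand, from RefSeq on GRCm38.p6. Capitals mark every match, on either strand, to the motifs listed after the sequences.
Cul9 promoter (chr17:46546339-46546638, minus strand): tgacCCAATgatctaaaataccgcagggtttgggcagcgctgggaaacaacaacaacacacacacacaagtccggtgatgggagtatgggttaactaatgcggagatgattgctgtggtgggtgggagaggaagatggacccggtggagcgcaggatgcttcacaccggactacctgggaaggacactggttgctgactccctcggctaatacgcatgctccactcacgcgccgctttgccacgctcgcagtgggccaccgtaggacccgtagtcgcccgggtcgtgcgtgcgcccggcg
Cul7 promoter (chr17:46650088-46650387, plus strand): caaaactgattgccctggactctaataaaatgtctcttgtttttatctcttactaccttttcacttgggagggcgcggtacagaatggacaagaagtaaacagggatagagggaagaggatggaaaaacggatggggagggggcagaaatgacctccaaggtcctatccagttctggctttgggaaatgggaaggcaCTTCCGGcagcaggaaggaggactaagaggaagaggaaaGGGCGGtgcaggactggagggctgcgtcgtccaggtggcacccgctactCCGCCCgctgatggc
Rnf7 promoter (chr9:96478626-96478925, minus strand): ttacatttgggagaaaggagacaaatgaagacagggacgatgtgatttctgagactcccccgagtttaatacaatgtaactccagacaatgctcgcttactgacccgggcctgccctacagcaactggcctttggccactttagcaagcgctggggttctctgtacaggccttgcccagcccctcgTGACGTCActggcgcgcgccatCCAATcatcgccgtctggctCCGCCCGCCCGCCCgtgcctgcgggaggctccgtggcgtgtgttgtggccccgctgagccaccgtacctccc
Rbx1 promoter (chr15:81466066-81466365, plus strand): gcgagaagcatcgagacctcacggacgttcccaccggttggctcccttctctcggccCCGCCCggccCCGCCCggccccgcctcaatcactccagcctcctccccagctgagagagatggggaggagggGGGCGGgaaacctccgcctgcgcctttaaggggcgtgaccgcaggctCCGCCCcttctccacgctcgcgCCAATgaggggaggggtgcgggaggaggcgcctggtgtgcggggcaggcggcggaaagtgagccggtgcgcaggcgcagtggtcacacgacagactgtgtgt

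The motifs were the CCAAT box (CCAAT, present in 37.4% of the 32851 mouse promoter windows of that table), the GC box (GGGCGG, 35.7%), an ETS site (CCGGAAG, 8.86%), the E-box (CACGTG, 7.15%), the CRE core (TGACGTCA, 1.79%), the NRF1 core (GCGCATGCG, 1.75%) and the TATA box (TATAAA, 13.6%), each searched on both strands. The *Cul9* window held 1 CCAAT box and no other match. *Cul7* held 2 GC boxes and 1 ETS site, so these neighbours had no motif in common. *Rnf7* held 1 CCAAT box, 1 CRE core and 3 GC boxes that overlap one another, and *Rbx1* held 1 CCAAT box and 4 separate GC boxes. The windows of the RING pair were 60.3% and 70.7% G or C, beside a median of 52.7% over all windows. Such shares were not particular to the pair. *Cul3* had 72.3%, *Cul4a* 71.0%, *Cul5* 62.0% and *Cul9* 59.7%, while *Cul7* had 53.3% and *Cul4b* 52.3%. The *Cul1* windows had 52.0%, 79.7% and 78.7%. Windows were found for 9 of the 10 genes, 11 in all with 3 for *Cul1*, and *Cul2* had none. Among the windows not shown, *Cul3* and *Cul4a* each had 3 GC boxes, *Cul4b* 1 CCAAT box, and *Cul5* 1 GC box, 1 E-box and 1 TATA box. A match is a description of letters and not of binding.

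In the GENCODE M39 annotation of GRCm39, *Cul9* spans 46811498 to 46857325 on chromosome 17 (minus strand) and *Cul7* 46961255 to 46975290 (plus strand). *Rbx1* lies on chromosome 15 from 81350467 to 81360571 (plus strand) and *Rnf7* on chromosome 9 from 96352990 to 96360749 (minus strand), the chromosome that also holds *Cul5* (53525882 to 53581314, minus strand). *Cul4b* is on chromosome X (37620412 to 37665081, minus strand), as is *Uba1* (20524493 to 20549418, plus strand). The values here are sums over whole genes, so no exon, intron or UTR is resolved. The span of *Cul1* (chromosome 6, 47430293 to 47510320, plus strand) overlaps *Ezh2* on the opposite strand. Non-coding genes on the opposite strand overlap *Cul1*, *Cul3*, *Cul4b*, *Cul5* and *Rnf7*, and on the same strand *Cul4a* overlaps *Mir7065* and *Cul3* overlaps 2 unclassified transcripts. The library kit does not mark strand, so reads in such overlaps cannot be told apart. *Rnf7l*, a relative of *Rnf7*, was listed at 0 TPM in all 8 muscles. The pseudogene *Rbx1-ps* was not listed by that name among the deposited genes. Reads it shares with *Rbx1* leave the level of *Rbx1* uncertain by an unknown amount.

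The genes that work with cullins were taken as lists of 64 genes in 8 roles, of which 61 were tested. The receptors *Skp2*, *Dtl* and *Ercc8* were too low. In limma 0 of 61 passed an adjusted p of 0.05, as against 0.0260% of all genes. At an unadjusted p under 0.05, 9 were higher and 1 was lower (16.0% and 1.98% of all genes), and with the replicate block 12 were higher and 1 was lower (22.4% and 2.80%). As deposited, 55 of 61 were higher on average and after median-ratio scaling 25 of 61 were, with 2 higher (*Cand2*, *Vhl*) and 4 lower (*Dcun1d3*, *Fbxw7*, *Cdc34*, *Ube2d1*) at an unadjusted p under 0.05 (4.43% and 6.18% of all genes). Their median log2FC was 0.096 as deposited and -0.016 after that scaling. Leaving out 1 muscle moved the median as deposited. It was 0.052 without *Uba1* siRNA replicate 1 (42 of 61 higher, median of all genes 0.080). Without *Uba1* siRNA replicate 2 it was 0.13 (57 of 61 higher, median of all genes 0.14).

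*Cand2*, the muscle-enriched exchange factor for cullins, was at 50.3, 49.1, 51.4 and 47.9 TPM with NT siRNAs and at 62.3, 59.1, 68.2 and 57.4 TPM with *Uba1* siRNAs. The groups stood well apart and the *Uba1* siRNA leg was higher in 4 of 4 mice (log2FC 0.31, standard error 0.068, adjusted p = 0.137 in limma). After median-ratio scaling its log2FC was 0.19 and its groups still stood apart. On that scale 1 of the 61 genes lay wholly above the controls, *Cand2* (2.71% of all genes), and 5 lay wholly below, *Ube2f*, *Dcun1d3*, *Spop*, *Cdc34* and *Ube2d1* (4.14% of all genes). The ubiquitous *Cand1* was far lower, at 3.63 ± 0.423 and 3.93 ± 0.601 TPM (SD, n = 4 muscles each), with a log2FC of 0.087 as deposited and -0.010 after median-ratio scaling. *Glmn*, which masks the E2 surface of Rbx1, was at 3.00 ± 0.428 and 3.51 ± 0.375 TPM.

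Attachment of NEDD8 to cullins runs from Nae1 and Uba3 through the E2 enzymes Ube2m and Ube2f, with the Dcun1d proteins as co-E3s. Of the 10 genes in this role, 3 were higher and 1 was lower at an unadjusted p under 0.05, beside 16.0% and 1.98% of all genes. With 1 muscle left out, 1 or 2 were higher and 1 was lower, beside 1158 to 2044 and 175 to 282 of the 11530 genes tested. With the replicate block 2 were higher and 1 was lower (22.4% and 2.80% of all genes). After median-ratio scaling 0 were higher and 1 was lower by that criterion (4.43% and 6.18% of all genes), and 7 of 10 had a negative log2FC. The lower gene was *Dcun1d3*, at 3.95, 3.81, 3.76 and 3.56 TPM with NT siRNAs and at 3.38, 2.58, 2.97 and 2.67 TPM with *Uba1* siRNAs. All 4 knockdown muscles were below all controls (log2FC -0.29, standard error 0.082, adjusted p = 0.166 in limma), and the adjusted p was 0.0516 after median-ratio scaling and 0.0467 after quantile normalization, where 0.243% of all genes passed. Its relatives *Dcun1d4* and *Dcun1d5* were higher in 4 of 4 mice, at 3.95 ± 0.267 and 4.63 ± 0.239 TPM and at 25.3 ± 0.888 and 28.1 ± 1.02 TPM (log2FC 0.19 and 0.14). *Nae1* was at 5.74 ± 0.237 and 6.61 ± 0.544 TPM (log2FC 0.17), and after median-ratio scaling these 3 genes had a log2FC between 0.026 and 0.088. *Ube2m*, the E2 for cullins bound to Rbx1, was at 71.6 ± 3.74 and 77.5 ± 8.42 TPM, and *Ube2f*, which works with Rnf7 on Cul5, was at 11.7 ± 0.355 and 11.9 ± 0.890 TPM. *Nedd8* itself was at 76.5 ± 5.69 and 79.1 ± 14.0 TPM, with a log2FC of 0.034 as deposited and -0.087 after median-ratio scaling, and the *Uba1* siRNA leg was lower in 3 of 4 mice. Of the 11 genes for NEDD8 removal (the COP9 signalosome and *Senp8*), 0 passed an unadjusted p of 0.05, and the log2FC ran from 0.0091 to 0.17 around a median of 0.090, beside 0.11 over all genes. With 1 muscle left out that median ran from 0.047, without *Uba1* siRNA replicate 1, to 0.11, without NT replicate 4. After median-ratio scaling the log2FC of these genes ran from -0.11 to 0.076 around a median of -0.028, with 8 of 11 genes negative. With the replicate block 1 of the 11 was higher by an unadjusted p under 0.05, beside 22.4% of all genes. It was *Cops7b* (unadjusted p = 0.0370, adjusted p = 0.176 in limma).

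Among 22 substrate receptors, 19 were tested, 3 were higher and 0 were lower at an unadjusted p under 0.05, beside 16.0% and 1.98% of all genes. After median-ratio scaling 1 was higher (*Vhl*) and 1 lower (*Fbxw7*), beside 4.43% and 6.18%. *Vhl*, the receptor of Cul2 ligases for hypoxia-inducible factors, was at 4.00, 3.84, 3.48 and 3.45 TPM with NT siRNAs and at 4.59, 4.46, 5.44 and 4.26 TPM with *Uba1* siRNAs, with no overlap (log2FC 0.28, standard error 0.085, adjusted p = 0.178 in limma). *Zyg11b*, another Cul2 receptor, was at 26.1 ± 3.95 and 31.7 ± 1.78 TPM. *Fbxo32*, the muscle F-box protein atrogin-1 of the SCF ligases, was at 92.0 ± 8.04 and 119 ± 24.1 TPM, higher in 4 of 4 mice (log2FC 0.35, adjusted p = 0.236 in limma). Its *Uba1* siRNA values ran from 92.1 to 149.9 TPM and overlapped those of the controls. After median-ratio scaling the log2FC of *Vhl*, *Zyg11b* and *Fbxo32* was 0.18, 0.16 and 0.23. Of the Cul7 partners, *Fbxw8* stood apart at 10.9 ± 0.631 and 12.8 ± 0.698 TPM (log2FC 0.21, adjusted p = 0.183 in limma, and 0.097 after scaling), while *Obsl1* was at 24.7 ± 3.52 and 23.6 ± 6.80 TPM. *Ccdc8*, the third gene of that complex, was near the limit of the filter at 1.07 ± 0.549 and 1.68 ± 0.442 TPM and higher in 4 of 4 mice. Its log2FC was the largest of the 61 (0.40, adjusted p = 0.309 in limma, and 0.33 after scaling), with an unadjusted p of 0.0684, or 0.00305 with the replicate block (adjusted 0.0890). None of the 5 adaptors passed an unadjusted p of 0.05 (log2FC from 0.029 for *Eloc* to 0.12 for *Skp1*), and after median-ratio scaling the log2FC was negative for 5 of 5, from -0.090 for *Eloc* to -0.0029 for *Skp1*. Of the 8 cooperating E2 and RBR enzymes, *Ube2r2* stood apart at 68.8 ± 2.56 and 78.3 ± 3.30 TPM (log2FC 0.18, adjusted p = 0.182 in limma), and 0.065 was its log2FC after scaling. On the scaled values 6 of the 8 were negative (median -0.095). *Ube2d1* was at 71.4 ± 3.93 and 63.7 ± 8.16 TPM (log2FC -0.17, and -0.29 after scaling with an unadjusted p = 0.00163 and an adjusted p = 0.155 in limma). *Ube2g1* was at 40.1 ± 5.37 and 36.8 ± 4.13 TPM and lower in 4 of 4 mice (log2FC -0.12, and -0.24 after scaling). On the scaled values its unadjusted p in limma was 0.0542 (adjusted 0.481), and 0.00244 with the replicate block (adjusted 0.117). *Cdc34*, the SCF E2 from the same family, was at 255 ± 10.5 and 245 ± 27.4 TPM (log2FC -0.059, and -0.18 after scaling). The subunits *Anapc2* and *Anapc11*, the cullin and RING counterparts in the anaphase-promoting complex, had a log2FC of 0.18 and 0.038 as deposited and 0.064 and -0.073 after scaling. Neither passed an unadjusted p of 0.05. With the replicate block *Anapc2*, higher in 4 of 4 mice, did (unadjusted p = 0.0362, adjusted p = 0.175 in limma). By that criterion 22.4% of all genes were higher with the block.

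**Figure D4:**
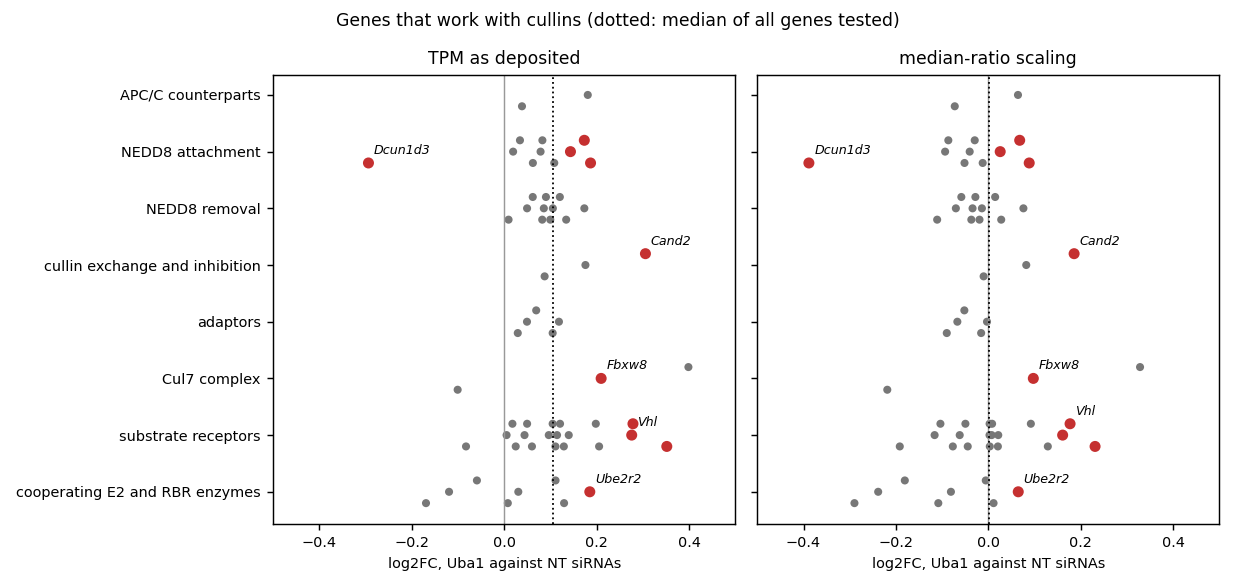
Log2FC of the 61 tested partner genes by role, Uba1 against NT siRNAs, as deposited at left and after median-ratio scaling at right. Large red points are the 10 genes at an unadjusted p under 0.05 as deposited that differed in the same direction in 4 of 4 mice, some of them labelled, grey points are the others, and dotted lines mark the median of all genes tested. Most points follow the dotted line from one scale to the other, with Dcun1d3 below it and Cand2 above it on both.

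The 10 genes also varied among muscles of the same group. Each gene's median-ratio scaled log2 value was taken as a deviation from its group mean, and genes were correlated over the 8 muscles, which include both legs of each mouse and share their scaling factors. Over the 45 pairs of the 10 genes Pearson's r ranged from -0.89 to 0.90 with a median of 0.051, so the family did not vary as a block. *Cul2*, *Cul3* and *Cul9* varied together (r = 0.90 for *Cul2* with *Cul3*, and 0.86 for *Cul2* with *Cul9*), as did *Cul1* and *Cul3* (0.84). *Cul7* ran against them, at -0.89 with *Cul1*, -0.86 with *Cul3* and -0.80 with *Cul2*. *Rnf7* and *Rbx1* had an r of 0.41 with each other, and *Rnf7* with *Cul5* had -0.16.

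The fibroblast markers *Pdgfra*, *Dcn*, *Lum*, *Col1a1* and *Col3a1* varied among the same muscles. Their summed TPM were 725, 511, 913 and 429 in NT replicates 1 to 4 and 962, 566, 1129.5 and 671 with *Uba1* siRNAs. The mean was higher with *Uba1* siRNAs for 5 of 5 markers and the sum was higher in 4 of 4 mice, with overlapping groups and no marker at 0. Over the 8 muscles the mean deviation of these markers had an r of 0.91 with *Cul7*, -0.86 with *Cul9*, -0.82 with *Cul2*, -0.80 with *Cul3* and -0.77 with *Cul1*. With the other members r was -0.58 for *Rbx1*, -0.52 for *Cul5*, -0.19 for *Rnf7*, -0.046 for *Cul4b* and 0.15 for *Cul4a*. For leukocyte markers, of which 4 of 7 passed the filter, r was 0.70 with *Cul7*, -0.88 with *Cul3*, -0.83 with *Cul2* and -0.81 with *Cul9*. Their summed TPM ran from 17.8 to 42.0 with NT siRNAs and from 14.5 to 45.8 with *Uba1* siRNAs. *Cul9*, higher with *Uba1* siRNAs, thus ran opposite to the fibroblast and leukocyte markers within groups, whereas *Cul7* ran with both. The part of these markers in the difference between groups was not tested. For endothelial markers the r largest in size was -0.84, with *Cul4b*. Beyond the fibroblast list, only the r values largest in size are printed here. The summed erythroid markers ranged from 1154 to 4134 TPM with NT siRNAs and from 1114 to 2167 TPM with *Uba1* siRNAs. The log2FC was negative for 3 of 3 of these markers (median -0.69, and -0.81 after median-ratio scaling). That median was -0.42 without NT replicate 3, -0.47 without NT replicate 2 and -1.02 without NT replicate 4, and the sum was higher with *Uba1* siRNAs in 1 of 4 mice. Over the 8 muscles their mean deviation had an r of -0.81 with *Cul3* and -0.73 with *Cul5*, and their part in the values of these genes was not tested.

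The 5 tested genes most like the mean deviation of the 10 genes over the 8 muscles were *Crbn* (r = 0.99), *Zfp62*, *Zfp24*, *Lnpk* and *Carnmt1* (r = 0.98 each). They were picked as the highest of 11530, and NT replicate 4 lay farthest from the rest. *Crbn*, which is also on the list of substrate receptors, was at 5.48, 5.73, 6.76 and 8.08 TPM with NT siRNAs and at 7.61, 7.39, 7.11 and 8.10 TPM with *Uba1* siRNAs. The control muscles spread more widely than the knockdown muscles, and the log2FC was 0.20 (standard error 0.108, adjusted p = 0.346 in limma).

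**Figure D5:**
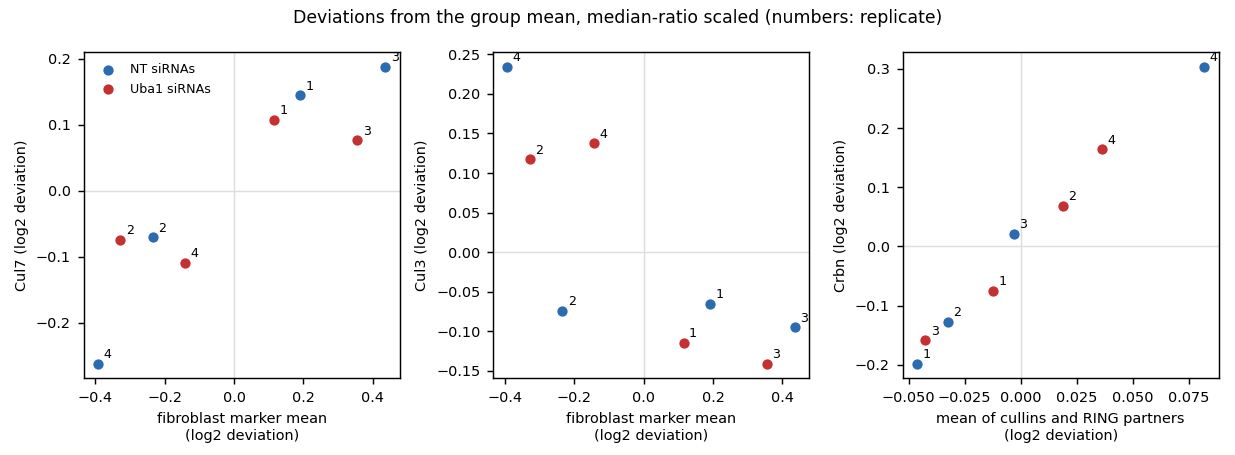
Deviations from the group mean in the 8 muscles, median-ratio scaled and on a log2 scale, with NT siRNAs in blue, Uba1 siRNAs in red and numbers giving the replicate. Cul7 increases with the mean of 5 fibroblast markers (r = 0.91), Cul3 decreases with it (r = -0.80), and Crbn follows the mean of the 10 genes (r = 0.99).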

How the data were processed

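Total RNA of 8 TA muscles was sequenced as paired-end reads of 100 bp from TruSeq v2 libraries, which do not mark strand. According to the study's methods and processing notes, the authors trimmed the reads (Phred 20, at least 50 bp), used CLC Genomics Workbench 20.0.4 to align them to GRCm39, and deposited TPM per gene. The annotation and the handling of reads that match several genes are not given in the sources used here. All value columns matched a sample (0 without).

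From the deposited TPM, log2(TPM + 1) was computed and a gene was tested if 4 muscles or more reached 1 TPM (11530 genes). The main test was limma 3.58.1 in R 4.3.3 (lmFit, eBayes with trend), unpaired, with Benjamini-Hochberg adjustment over all genes tested, and the log2FC understates changes of low genes. Ratios were tested by exact permutation in Python with numpy 2.4.6. The study names a Kruskal-Wallis test, which was run as an alternative beside another pseudocount (0.1), quantile normalization, median-ratio scaling, other low-value filters, TPM without mitochondrial genes, the replicate block and leaving out each muscle. Equal replicate numbers are legs of 1 mouse by the study's design; deviations from the group mean correlated at -0.00037, 0.20, 0.58 and 0.54 in replicates 1 to 4.

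The 10 genes, the partner lists, the cell type markers and the tests were chosen with earlier results of these data known. Partner genes were named if their adjusted p was under 0.05, or, up to 12, by the smallest unadjusted p under 0.05 with the same direction in 4 of 4 pairs; any other partner named was chosen after its values were seen. The 5 most similar genes were named by Pearson's r. The motifs, the promoters printed and the alternatives for *Uba1* and the named partners were chosen after seeing the data. The depth is unknown because TPM keep no read counts, so no counting interval is given and 4 muscles a group limit the precision.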

Additional observations from a re-analysis of the deposited data

Results flagged for a closer look

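In 5 of 62 groups of 4 muscles, 1 muscle stood far from the other 3 by Dixon's criterion, where chance gives about 3.1 of 62 (1 in 20). *Cul3* in NT replicate 4 was at 112.06 TPM, above the other 3 controls. *Zyg11b* in the same muscle was at 32.037 TPM, also above its group. *Dcun1d4* was low in NT replicate 3 (3.5559 TPM) and high in *Uba1* siRNA replicate 2 (4.989 TPM). *Lnpk* in *Uba1* siRNA replicate 4 was at 7.9579 TPM, above the other 3.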

How the results depend on the processing

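Under each alternative run, 0 of the 10 genes passed the adjusted p. The scaling moved directions. Median-ratio scaling was run alone and with the replicate block, and in both the median log2FC of the 10 genes went to -0.0047, that of *Cul3* to -0.0095, *Cul4a* to -0.084, *Cul5* to -0.032 and *Rbx1* to -0.028, and quantile normalization gave -0.035 for *Cul4a* and -0.0028 for *Cul5*. Without mitochondrial genes *Rnf7* was at 0.013. Leaving out 1 muscle moved *Cul5* between 0.032 and 0.16, *Cul4b* between 0.068 and 0.23, *Cul7* between 0.071 and 0.24, *Rbx1* between 0.042 and 0.13, *Cul4a* between -0.013 and 0.080, *Rnf7* between -0.065 and 0.043, and the log2 ratio of *Cul9* to *Cul7* between -0.041 and 0.23 (-0.041 without NT replicate 3 and -0.010 without *Uba1* siRNA replicate 4). Of the partner genes, 1 of 61 passed with quantile normalization, *Dcun1d3*, as did 0.243% of all genes. Over all genes, 57 passed with the replicate block and 3 without it. Among *Uba1*, the 10 genes and the named partners, the block as deposited changed the adjusted call of *Uba1* alone (0.0278 in limma). With a mean of 5 TPM or more, *Cul4b*, *Cul7* and *Cul9* were not tested and *Uba1* passed (adjusted p = 0.0466 in limma), as it did without mitochondrial genes (0.0486). Leaving out any single muscle kept *Cul9* between 0.22 and 0.28 and the log2 ratio of *Rnf7* to *Rbx1* between -0.11 and -0.072. The log2 ratio ranged from -0.25 to -0.052 for *Cul4a* to *Cul4b*, from 0.020 to 0.18 for *Cul5* to *Rnf7* and from 0.058 to 0.16 for the cullins to the RING partners. The causes were not tested.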
